A study of Mus musculus with 9 samples.

Results

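The platform's probe-to-gene annotation gave no gene symbol to 32974 of the 65534 transcript clusters on the arrays, and 1175 of these unnamed clusters (3.56%) had a mean log2 level of 8 or more over the 9 arrays. These 1175 bright unnamed clusters are described here. They made up 19.9% of the 5897 clusters at that level, and the other 4722 carried at least 1 symbol. A cluster without a symbol is unnamed in that annotation, which does not say that no gene lies there. The clusters were thus selected on their measured mean over all 9 arrays, and their brightness is no finding. The means just inside the limit were 8.0002 for TC1200000600.mm.1, 8.0037 for TC0X00001155.mm.1 and 8.0058 for TC0800002366.mm.1. Just outside it were TC1500001951.mm.1 at 7.9989, TC0200004490.mm.1 at 7.9954 and TC0X00001755.mm.1 at 7.9946.

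The arrays came from a mouse model of myocardial ischemia-reperfusion (I/R), in which the left anterior descending coronary artery is tied and then released. Male C57BL/6 mice of 8 weeks, 3 in all, had 45 min of ischemia and 24 h of reperfusion, after which the left ventricle was divided into the ischemic zone (IZ), the border zone (BZ) and the non-ischemic zone (NIZ). Each zone has 3 arrays of the Affymetrix GeneChip Mouse Transcriptome Assay 1.0, hybridised from 100 ng of total RNA. All zones therefore come from injured hearts, and no sham heart was analysed here. The labels number the samples of a zone from 1 to 3 without tying a number to a mouse, so p-values measure the spread between these samples.

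On this platform, a transcript cluster is a group of probes designed to 1 stretch of transcribed sequence, read out as a single level. Clusters without a gene symbol can lie on predicted or weakly annotated transcripts, on repeated copies of small structural RNAs, or on genes that the annotation does not link to them. Total RNA labelled without selection for polyadenylation retains transfer RNAs, small nuclear RNAs and the RNA of the signal recognition particle, which are among the most abundant RNAs of any cell, and heart muscle adds a large amount of RNA from its mitochondria. Clusters can differ in their probes, so a higher level than that of another cluster does not show a larger number of molecules. Zones were therefore compared only within a cluster. Some clusters had the same values on every array, and these are treated below as 1 measurement.

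The arrays were alike. Their medians lay between 4.19 and 4.29 log2, and every pair of arrays correlated at 0.987 to 0.997 over all clusters. Each of the 12 cardiomyocyte markers had a mean above 8. None of the 6 neural markers (Snap25, Syt1, Rbfox3, Gfap, Mbp and Nefl) reached 8. This bears on the labels because 1 of their tags is headed brain while the source is given as heart. The mean of the 12 neutrophil markers ranged from 7.50 to 8.22 on the IZ arrays, from 6.26 to 9.26 on the BZ arrays and from 5.88 to 9.14 on the NIZ arrays, and that of the 4 atrial markers was 10.26 on 1 NIZ array against 8.98 or less on the other 8 arrays. In whole tissue, fewer cells of a type and less RNA per cell cannot be told apart.

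The bright unnamed clusters ran over the whole upper range of the arrays. Their median mean level was 9.6 and the highest was 14.4, and 1058 of them were at 8 or more on every array. The lowest single value of any of them was 7.25, still above the median of its array. The share of clusters without a symbol grew with the level. It was 15.4% between 8 and 9, where 421 unnamed clusters stood beside 2312 named ones, 17.6% between 9 and 10, 23.0% between 10 and 11, 29.7% between 11 and 12 and 33.3% between 12 and 13. At 13 or more, 67 unnamed clusters stood beside 63 named ones, a share of 51.5%. These shares describe what the limit selected.

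**Figure D1:**
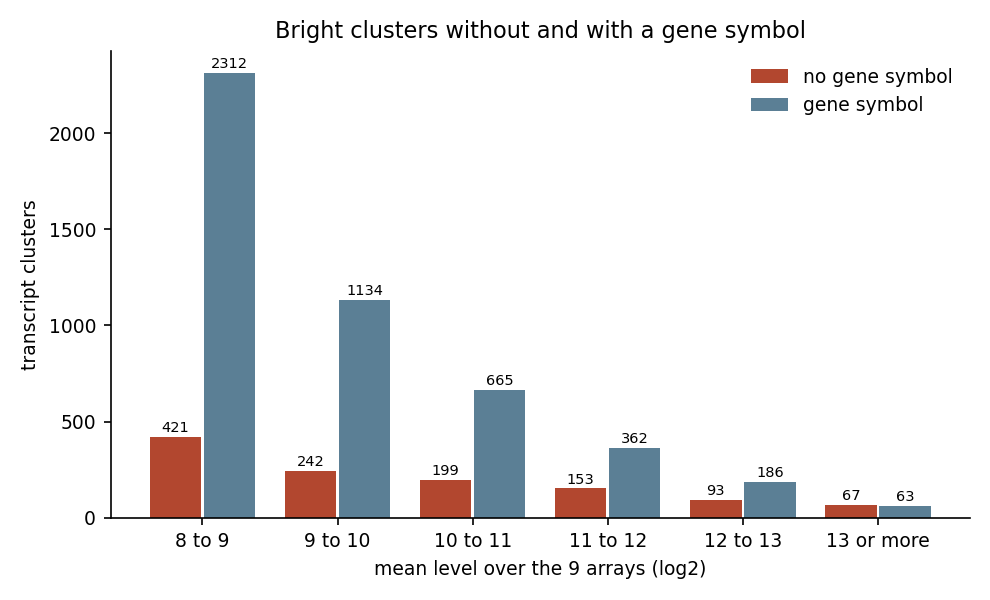
Number of transcript clusters (y axis) by mean log2 level over the 9 arrays (x axis, bins of 1 log2), without a gene symbol (red) and with one (blue). Unnamed clusters are 421 against 2312 named ones between 8 and 9, and 67 against 63 at 13 or more.

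Bright unnamed clusters came from every chromosome, and the mitochondrial chromosome stood apart from all the others. Of its 19 unnamed clusters, 17 (89.5%) were bright. The nuclear chromosomes held 1158 bright unnamed clusters, 3.51% of their unnamed clusters. Chromosome 2 had the most (111, or 4.24% of its unnamed clusters), and chromosome 4 the highest share among autosomes (101, 4.88%). Chromosome 7 had 83 (4.77%) and the X chromosome 63 (4.60%). The lowest share among autosomes was that of chromosome 14 (34, 2.37%), and the Y chromosome had 4 (1.33%). Named clusters showed another order, with bright shares of 13.7% on chromosome 4 and 9.78% on chromosome 7, and the highest autosomal share on chromosome 18 (20.5%), where only 25 unnamed clusters (2.44%) were bright.

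**Figure D2:**
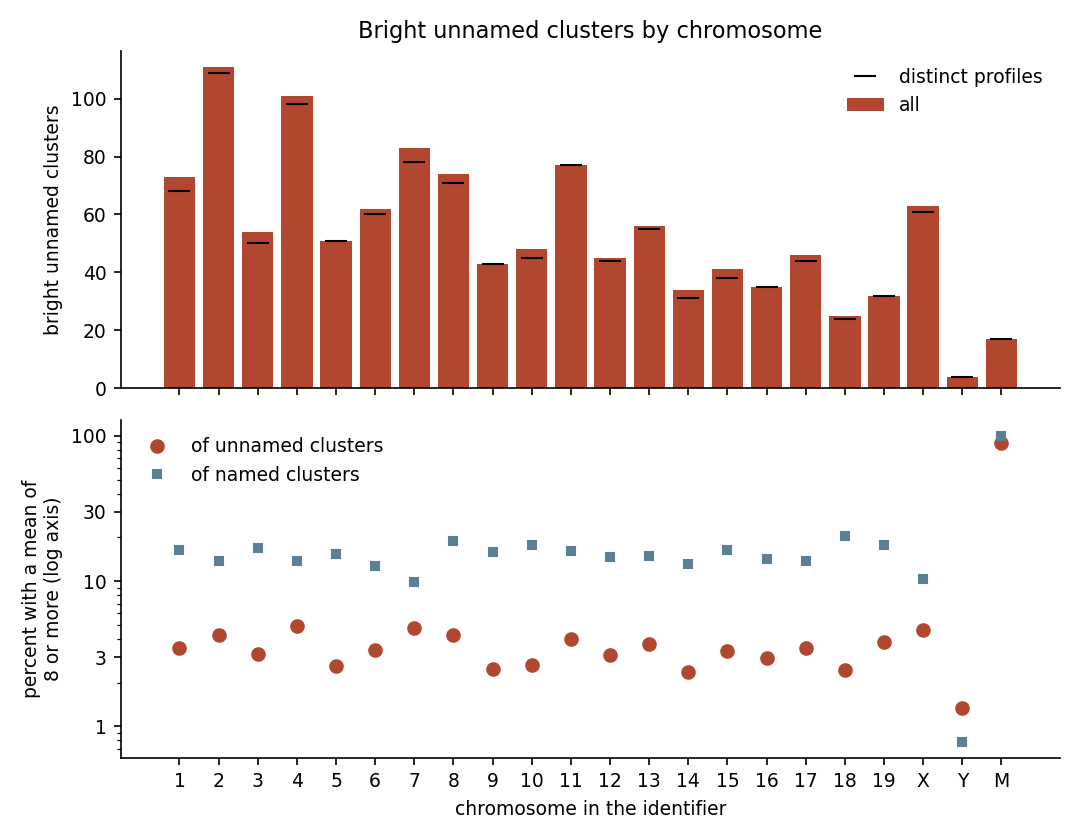
Upper panel, number of bright unnamed clusters on each chromosome (bars) and of distinct profiles among them (lines). Lower panel, percent of the unnamed (red) and of the named (blue) clusters of a chromosome with a mean of 8 or more, on a log axis, where chromosome M reaches 89.5% and 100% while the autosomes lie between 2.37% and 4.88% for unnamed clusters.

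The numbers in the identifiers followed the order of genes along a chromosome, first on one strand and then on the other. Among 29969 consecutive pairs of named clusters that could be placed with a RefSeq gene table of the mouse (GRCm38.p6), 98.8% stood in ascending order, and 99.1% of 12468 pairs in a row lay on the same strand. Neighbours in the identifier order are therefore used below to say near which named genes an unnamed cluster lies, with no claim that it belongs to them. A bright cluster was the direct neighbour of 331 of the 1175 bright unnamed clusters (28.2%), against 15.9% of the other unnamed clusters. For 213 (18.1%) that neighbour was a bright named cluster, against 4125 of the 31799 other unnamed clusters. Another bright unnamed cluster was the direct neighbour of 130 (11.1%), against 3.15%. The bright named clusters had shares of 24.0%, 19.9% and 4.7% in the same order. The 130 bright unnamed clusters formed 58 uninterrupted runs, 50 of which were pairs, and the longest run held 9 mitochondrial clusters.

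The same gene table was read for genes lying between the nearest placed genes on each side. Only genes that no cluster is named for were counted, for every gene type. An interval can therefore hold further genes that a cluster is named for. Of the 1158 nuclear members, 1131 could be placed. A small nuclear RNA gene lay in the interval of 34 (3.01%), against 1.27% of the other unnamed nuclear clusters, a transfer RNA gene in that of 27 (2.39%, against 1.96%) and a small nucleolar RNA gene in that of 54 (4.77%, against 4.04%). A long noncoding RNA gene lay in the interval of 659 (58.3%, against 64.7%). For 240 (21.2%, against 14.2%), the interval held a protein-coding gene that no cluster is named for, and this share was 6.15% among the placed members with a mean of 13 or more (4 of 65). An interval can be long, its median being 218 kb, so a gene within it need not be the source of the signal. The median was 288 kb for the other unnamed nuclear clusters and 174 kb for the members with a mean of 13 or more. The shares were not adjusted for these lengths.

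Identical profiles were common among the bright unnamed clusters. In 25 sets, holding 120 clusters (10.2%), every member had the same 9 values, so the 1175 clusters carried 1080 distinct profiles. Of the bright named clusters, 161 (3.41%) shared their values with another bright named cluster. The members of 19 sets lay on several chromosomes and those of 6 sets on 1 chromosome. Clusters that share all 9 values are 1 measurement, and counts of distinct profiles are given below beside counts of clusters.

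The largest set held 26 clusters on 12 chromosomes, among them a pair of neighbours on chromosome 3, TC0300001225.mm.1 and TC0300001226.mm.1. Its level was 11.41, 11.56 and 11.67 in IZ, 11.46, 11.46 and 11.68 in BZ and 11.48, 11.50 and 11.65 in NIZ. The zones overlapped, with a difference of -0.01 log2 in BZ against NIZ. The second set held 18 clusters on 11 chromosomes and read 10.33, 10.41 and 10.50 in IZ, 10.33, 10.27 and 10.27 in BZ and 10.40, 10.38 and 10.46 in NIZ. Every BZ array lay below every NIZ array in this set, by 0.12 log2 on average. The third set held 15 clusters on 9 chromosomes, with 11.27, 11.36 and 11.45 in IZ, 11.32, 11.27 and 11.25 in BZ and 11.33, 11.33 and 11.42 in NIZ. Here, too, BZ lay below NIZ without overlap (-0.08 log2). Members of the largest set and of a further set of 7 clusters, with a mean of 10.71, were direct neighbours at 2 places on chromosome 14 (TC1400001825.mm.1 beside TC1400001826.mm.1, and TC1400001835.mm.1 beside TC1400001836.mm.1). A set of 4 clusters with a mean of 8.35 lay on chromosome 10 alone, as 2 pairs of neighbours.

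Only 6 bright unnamed clusters shared all 9 values with a named cluster, and they were picked out after their values were seen. TC1200000452.mm.1 had the values of Rnu1a1 and 5 further named clusters. Rnu1a1 encodes U1, the small nuclear RNA that recognises the start of introns during splicing. This profile ran from 11.95 to 12.07 in IZ, from 11.90 to 12.15 in BZ and from 12.01 to 12.40 in NIZ, so that the zones overlapped. TC1200000429.mm.1 shared its values with 48 named clusters on 18 chromosomes, of which Gm23934 is annotated as a small nuclear RNA gene, and had a mean of 10.43. TC0900002769.mm.1 had the values of Gm26465, Gm25021, Gm24424 and Gm24389 (mean 10.08), and TC1100001665.mm.1 those of Gm23971 (10.17). TC0800003141.mm.1 shared its values with the pseudogene Gm23647 (12.16) and TC0900001926.mm.1 with the pseudogene Gm3699 (11.46).

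The 12 brightest profiles differed little between zones. TC0400001746.mm.1, which has the same 9 values as TC0900002348.mm.1, was the brightest with a mean of 14.40. It read 14.39, 14.43 and 14.41 in IZ, 14.40, 14.40 and 14.33 in BZ and 14.41, 14.43 and 14.42 in NIZ. The transfer RNA gene n-TVaac1 lies in the interval of TC0400001746.mm.1, after Akr7a5 on chromosome 4. The interval of TC0900002348.mm.1, between Peak1 and Lingo1, held 4 genes that no cluster is named for, 0 of them a transfer RNA gene. TC1100003794.mm.1 followed with a mean of 14.37, between Retreg3 and Plekhh3, then TC1300001428.mm.1 (14.31, between Zmynd11 and Chrm3), TC1600000133.mm.1 (14.28, after Snn) and TC0400000876.mm.1 (14.21, after Acer2). TC1200000561.mm.1 and TC1200001864.mm.1, with means of 14.16 and 14.14, lie in the intervals of chromosome 12 that hold Rn7s1 and Rn7s2, genes of the RNA of the signal recognition particle, which guides secreted and membrane proteins to the endoplasmic reticulum. Their intervals held 9 and 3 genes that no cluster is named for, so Rn7s1 and Rn7s2 need not be the source of the signal. The intervals of the other brightest profiles held no transfer RNA or signal recognition particle RNA gene that no cluster is named for. Over the 9 arrays TC1200000561.mm.1 and TC1200001864.mm.1 spanned 0.10 log2 each. Since such values lie near the top of the range that the arrays returned, their narrow span need not be that of the RNA.

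Of the other 5 brightest profiles, TC0100002078.mm.1 (14.02) and TC0100003482.mm.1 (13.91) had the widest zone differences of the 12. TC0100002078.mm.1 lies near Gm10925 on chromosome 1 and was at 14.03, 14.00 and 14.16 in IZ, 13.99, 13.95 and 13.87 in BZ and 14.08, 14.03 and 14.06 in NIZ. TC0100003482.mm.1, between Uck2 and Mgst3, was at 13.93 on every IZ array, at 13.88, 13.85 and 13.75 in BZ and at 14.00, 13.95 and 13.94 in NIZ. Both were lower on every BZ array than on every NIZ array, by 0.12 and 0.13 log2 on average, with unadjusted limma p-values of 0.0496 and 0.0141 and an adjusted p of 0.854 for each. TC1500000918.mm.1 (14.01), TC1500000834.mm.1 (13.98) and TC0200002613.mm.1 (13.91) differed between any 2 zones by at most 0.09 log2.

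Of the 1175 clusters, none passed an adjusted p of 0.05 in IZ against NIZ, in BZ against NIZ or in IZ against BZ, as none of all 65534 clusters did (0%). The test was limma's moderated test with Benjamini-Hochberg adjustment over all clusters, and the smallest adjusted p of a bright unnamed cluster was 0.999, 0.854 and 0.943 in the 3 comparisons in that order. The comparisons of IZ and of BZ with NIZ share the NIZ arrays. Most differences were small. Between 97.8% and 98.6% of the bright unnamed clusters lay within 0.5 log2 of no difference in each comparison, and those beyond 1 log2 numbered 2 in IZ against NIZ, 0 in BZ against NIZ and 3 in IZ against BZ. An exact permutation test of 3 arrays against 3 cannot go below 0.1, which it reaches when the zones do not overlap, so the clusters without overlap are given as counts.

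In BZ against NIZ, the bright unnamed clusters leaned to lower levels. All 3 BZ arrays lay below all 3 NIZ arrays in 263 of them (22.4%), where the share was 3.72% of all clusters and 5.76% of the bright named clusters. The opposite arrangement was found in 24 (2.04%, against 2.51% of all clusters). Counted as distinct profiles, 220 of 1080 (20.4%) were lower without overlap, and without the mitochondrial chromosome 247 of 1158 (21.3%). At an unadjusted limma p under 0.05, 120 clusters (10.2%) were lower and 16 higher in BZ, where the shares of all clusters were 3.09% and 2.19%. The 120 became 63 without BZ 3, without NIZ 1 or without NIZ 2. The differences behind these counts were small. The median over the bright unnamed clusters was -0.0645 log2, against -0.0239 for bright named clusters and 0.003 for all clusters, and the mean was lower in BZ than in NIZ for 840 (71.5%), against 58.8% of the bright named clusters. The difference between unnamed and named clusters was not itself tested.

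The lower BZ levels reached every level bin. The share of bright unnamed clusters that were lower in BZ without overlap was 11.2% between 8 and 9 and 11.6% between 9 and 10, then 26.1% between 10 and 11, 36.6% between 11 and 12, 37.6% between 12 and 13 and 67.2% at 13 or more. Among named clusters the shares were 4.02%, 5.82%, 5.11%, 10.5%, 10.2% and 34.9% in the same bins. The median difference stayed between -0.0918 and -0.0454 log2 in all bins of the unnamed clusters. Among the nuclear chromosomes with more than 4 members, the share lower without overlap was lowest on chromosome 14 (2 of 34, 5.88%) and highest on chromosome 6 (24 of 62, 38.7%). The BZ 3 array was lowest. The median deviation of the bright unnamed clusters from their own mean was -0.0925 log2 on that array and between -0.0192 and 0.0618 on the other 8, and it was -0.0799 for bright named clusters and 0.0182 for all clusters on the BZ 3 array. Without that array 362 clusters (30.8%) were lower in both remaining BZ arrays than in NIZ, against 9.36% of all clusters and 7.24% of the bright named ones. After quantile normalization of the table the count was 123 (10.5%, against 3.97% of all clusters and 6.50% of the bright named clusters).

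**Figure D3:**
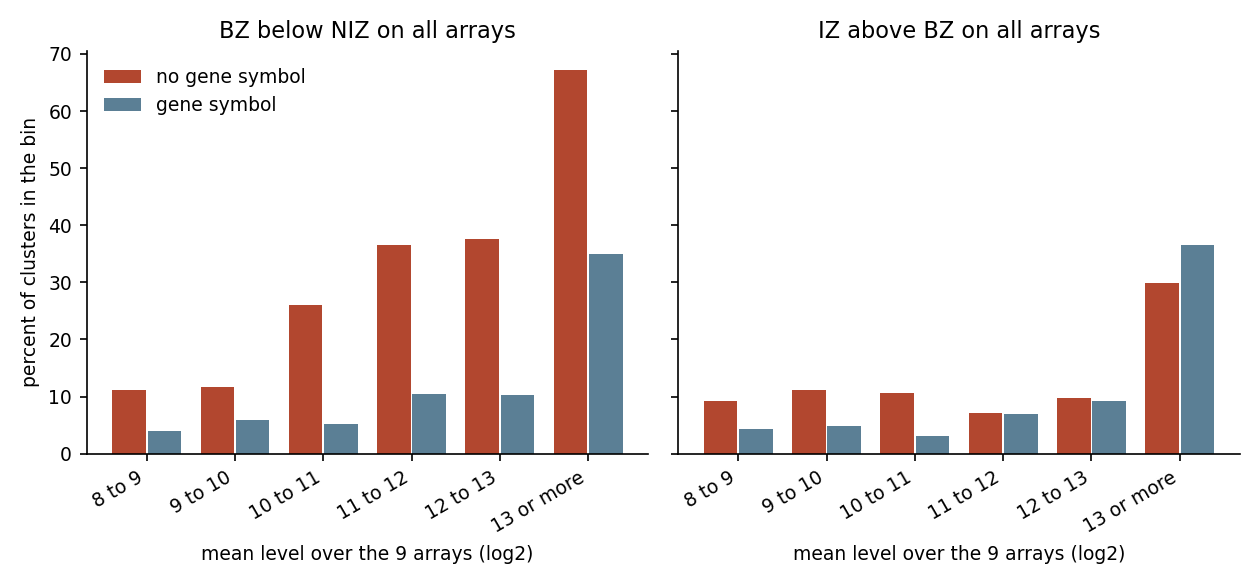
Percent of clusters (y axis) whose arrays do not overlap between zones, by mean log2 level (x axis), for clusters without a gene symbol (red) and with one (blue). Left, BZ below NIZ, where the unnamed clusters run between 11.2% and 67.2%. Right, IZ above BZ, where they run between 7.19% and 29.9%.

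In IZ against BZ, 127 bright unnamed clusters (10.8%) were higher on every IZ array than on every BZ array, where the share of all clusters was 2.24% and that of bright named clusters 5.06%. Only 13 (1.11%) were lower without overlap, against 3.53% of all clusters. The count of distinct profiles that were higher was 118 (10.9%), and 116 of the 1158 nuclear clusters were. At an unadjusted limma p under 0.05, 105 were higher (8.94%, against 1.26% of all clusters) and 6 were lower (0.511%, against 2.58%). The 105 became 29 without IZ 3 and 42 without BZ 3, and the 6 became 35 without BZ 2 and 18 without BZ 1 or BZ 3. Without overlap, the 127 became 294 without IZ 1, 218 (18.6%) without IZ 2, 243 (20.7%) without BZ 1 and 275 (23.4%) without BZ 2, where the shares of the bright named clusters were 13.9%, 10.9%, 13.3% and 14.1%. The median difference was 0.0583 log2, beside 0.0456 for bright named clusters. In the level bins from 8 to 11, 9.26%, 11.2% and 10.6% were higher without overlap, against 4.24%, 4.85% and 3.16% of the named clusters. In the bins from 11 on, the shares were 7.19%, 9.68% and 29.9%, against 6.91%, 9.14% and 36.5%. The excess over named clusters thus lay mainly below a level of 11. The comparison of IZ with BZ and that of BZ with NIZ use the same BZ arrays.

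In IZ against NIZ the counts in the 2 directions were close with all 9 arrays, and they moved with single arrays. Without overlap, 47 bright unnamed clusters (4.0%) were higher in IZ, beside 1.78% of all clusters and 4.26% of the bright named ones, and 49 (4.17%) were lower, beside 4.55% and 2.86%. At an unadjusted limma p under 0.05, 29 were higher and 15 lower, where the shares of all clusters were 1.24% and 2.72%. The median difference was -0.00232 log2. Without the IZ 3 array, 269 (22.9%) were lower without overlap and 69 (5.87%) higher, where 6.78% and 9.45% of the bright named clusters were. Without the NIZ 3 array, 197 (16.8%) were lower and 126 (10.7%) higher, beside 12.8% and 7.77% of all clusters. Of the bright named clusters, 14.6% were lower and 15.2% higher in that setting. After median centring 25 (2.13%) were lower and 127 (10.8%) higher, beside 2.03% and 11.2% of the bright named clusters.

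The mitochondrial chromosome held the largest group of neighbouring members. Its genome encodes subunits of the respiratory chain and of ATP synthase, 2 ribosomal RNAs and 22 transfer RNAs, and the named clusters cover the protein genes, the ribosomal RNAs and the lysine transfer RNA mt-Tk. The 17 bright unnamed clusters had means between 8.22 and 13.12, and the 11 named mitochondrial clusters between 9.30 and 13.99. In the identifier order, TC0M00000001.mm.1 stands before mt-Rnr1, the gene of the small ribosomal RNA, and TC0M00000003.mm.1 stands between it and the large ribosomal RNA. TC0M00000010.mm.1 and TC0M00000012.mm.1 stand on the 2 sides of ND3, and TC0M00000014.mm.1 and TC0M00000015.mm.1 stand before ND5. The other 11 have numbers after ND5 and CYTB, where the identifiers of the second strand begin, and 9 of them form an uninterrupted run before ND6.

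Mitochondrial members were lower in BZ. All 17 had a lower mean in BZ than in NIZ, by 0.15 to 0.78 log2 with a median of -0.44. In 16 of them (94.1%) the arrays did not overlap, against 3.72% of all clusters. All 17 were read on the same 9 arrays, so they are not 17 separate observations. The median on the array, relative to the NIZ mean of each cluster, was -0.09, -0.15 and 0.26 in IZ, -0.42, -0.24 and -0.56 in BZ and -0.04, 0.03 and 0.01 in NIZ. The IZ 3 array was the highest and the BZ arrays were the 3 lowest. The 11 named mitochondrial clusters also had lower values on every BZ array than on every NIZ array, with a median of -0.16 log2. At an unadjusted limma p under 0.05, 15 of the 17 unnamed and 6 of the 11 named clusters were lower in BZ. The share of all clusters was 3.09%, and the adjusted p was not below 0.854 for any mitochondrial cluster. The 15 became 5 without BZ 3, 9 without NIZ 2 and 8 without NIZ 3, with all 17 still lower in the mean. In IZ against BZ all 17 were higher in the mean, 11 of them without overlap, against 2.24% of all clusters. The median was 0.44 log2 (0.17 for the named clusters). Without the IZ 3 array the last median was 0.29 for the unnamed clusters. Against NIZ, the IZ median was 0.00, with values from -0.33 to 0.55, and without the IZ 3 array it was -0.13, with 15 of the 17 lower.

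**Figure D4:**
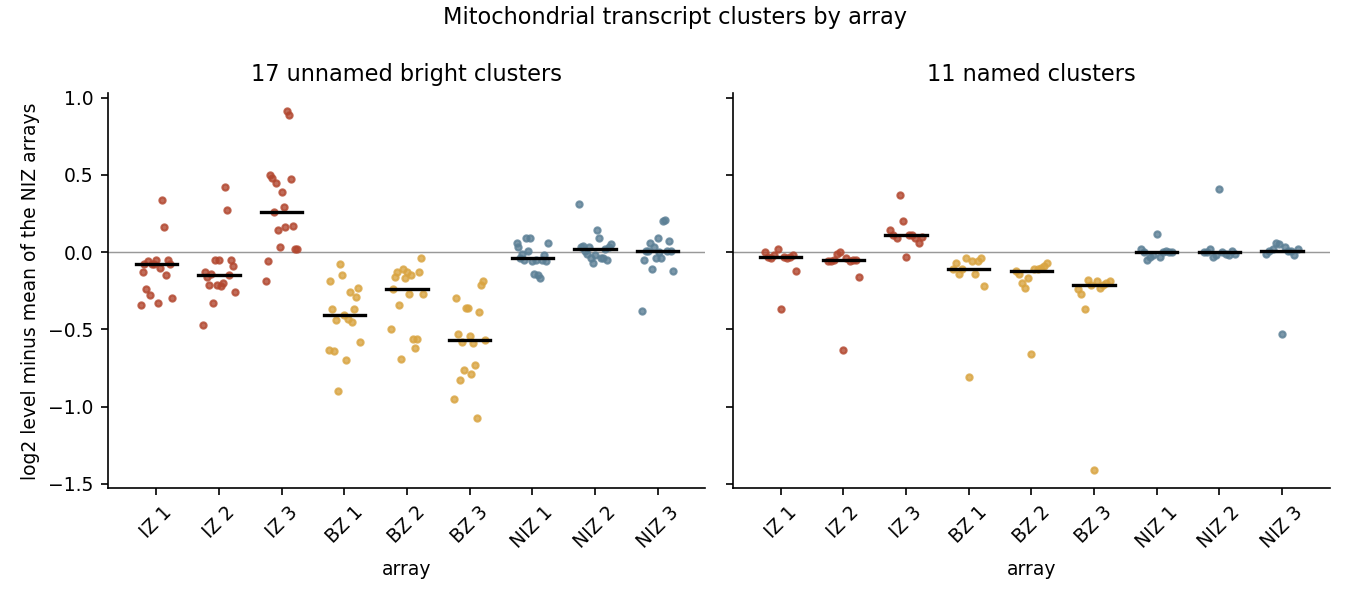
Log2 level minus the mean of the NIZ arrays (y axis) on each of the 9 arrays (x axis) for the 17 bright unnamed (left) and the 11 named (right) mitochondrial clusters. Points are clusters and lines are medians, which lie at -0.42, -0.24 and -0.56 for the unnamed clusters on the BZ arrays.

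Among the single mitochondrial members, TC0M00000015.mm.1 had the largest BZ difference. It read 8.93, 8.88 and 9.66 in IZ, 8.31, 8.52 and 8.45 in BZ and 9.30, 9.24 and 9.10 in NIZ. The BZ mean was 8.43 ± 0.11 and the NIZ mean 9.21 ± 0.10 (SD, n = 3 each), a difference of -0.78 log2 or 0.582-fold (limma, unadjusted p = 0.00444, adjusted p = 0.854). Every BZ array lay below all other arrays.

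TC0M00000001.mm.1, before the small ribosomal RNA, was at 8.38, 8.25 and 8.53 in IZ, 8.09, 8.22 and 7.77 in BZ and 8.78, 9.03 and 8.34 in NIZ. Its BZ arrays were the 3 lowest of the 9, with a difference of -0.69 log2 against NIZ. Over the 9 arrays its profile was most like that of mt-Tk among bright clusters of 1 symbol (r = 0.987). The mt-Tk cluster had the largest BZ difference of the named mitochondrial clusters, -0.96 log2. The correlations in this text describe likeness over the same 9 arrays and are not tests.

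TC0M00000023.mm.1 and TC0M00000024.mm.1, which follow each other on the second strand, had the largest differences between IZ and BZ of the mitochondrial members. TC0M00000023.mm.1 read 8.55, 8.63 and 9.12 in IZ, 7.95, 7.65 and 7.48 in BZ and 8.06, 8.17 and 8.41 in NIZ. Its 3 zones were fully separated, in the order IZ, NIZ, BZ, with 1.07 log2 between IZ and BZ (limma, unadjusted p = 0.000444, adjusted p = 0.943) and 0.55 log2 between IZ and NIZ. TC0M00000024.mm.1 was at 8.99, 9.10 and 9.72 in IZ, 8.38, 8.21 and 7.76 in BZ and 8.66, 8.79 and 9.04 in NIZ. IZ 1, the lowest IZ array, lay just below NIZ 3, and every BZ array lay below both of the other zones. The difference of IZ from BZ was 1.15 log2. Both profiles were like that of COX2, a subunit of cytochrome c oxidase (r = 0.945 and 0.959).

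TC0M00000021.mm.1 read 9.21, 9.32 and 9.83 in IZ, 8.84, 9.27 and 8.75 in BZ and 9.40, 9.68 and 9.54 in NIZ, a BZ difference of -0.59 log2 against NIZ. BZ 2 lay above the lowest IZ value, and no BZ array reached NIZ. TC0M00000028.mm.1, the brightest unnamed mitochondrial cluster with a mean of 13.12, was the single one whose BZ and NIZ arrays overlapped. It ran from 12.96 to 13.15 in BZ and from 13.13 to 13.22 in NIZ.

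Some nuclear members had array profiles like those of the mitochondrial clusters. Of the 1158 nuclear members, 50 (4.32%) correlated above 0.9 with the mean of the named mitochondrial clusters over the 9 arrays, as 40 of 4711 bright named nuclear clusters did (0.849%). The highest correlation was that of TC1300002378.mm.1 (0.975), with a mean of 12.68 and a difference of -0.17 log2 in BZ against NIZ. TC0100002077.mm.1 and TC0100002078.mm.1 on chromosome 1 stand directly after Gm10222 and Gm10925 in the identifier order, and these 4 neighbours had means of 13.67, 14.02, 13.74 and 13.71. TC0100002078.mm.1 was like mt-Rnr1 (r = 0.984), with a difference of -0.12 log2 in BZ against NIZ, where mt-Rnr1 had -0.16. Whether nuclear copies of mitochondrial sequence share probes with mitochondrial RNA was not tested.

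Among nuclear members without overlap, the largest difference in IZ against NIZ was that of TC1300001359.mm.1 on chromosome 13. It read 9.15, 8.82 and 8.30 in IZ, 9.40, 8.27 and 7.90 in BZ and 8.02, 7.25 and 7.76 in NIZ. IZ lay above NIZ on every array, with means of 8.76 ± 0.43 and 7.68 ± 0.39 (SD, n = 3 each), a 2.12-fold difference of 1.08 log2 (limma, unadjusted p = 0.0305, adjusted p = 0.999), while BZ overlapped both. Its profile followed that of Sirpa, a receptor of macrophages and other myeloid cells (r = 0.966), and of Cybb, the catalytic subunit of the phagocyte NADPH oxidase (0.957). The mean of the 14 monocyte and macrophage markers correlated with it at 0.983. That mean ranged from 8.10 to 8.55 on IZ arrays, 7.97 to 8.71 on BZ arrays and 7.76 to 8.12 on NIZ arrays, and its part in the difference was not tested.

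TC0100002575.mm.1 on chromosome 1 stands directly before Tns1, which encodes tensin, a linker between actin and cell adhesions. It was at 10.05, 9.97 and 9.62 in IZ, 10.33, 9.54 and 9.36 in BZ and 9.31, 9.05 and 9.19 in NIZ. No IZ or BZ array was as low as any NIZ array, with differences of 0.69 log2 in IZ and 0.56 log2 in BZ (limma, unadjusted p = 0.0227 and 0.0529, adjusted p = 0.999 and 0.854). The BZ difference was 0.27 log2 without the BZ 1 array. This profile also followed Cybb (r = 0.961) and correlated with the macrophage marker mean at 0.973.

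TC0400001697.mm.1 and TC0200004734.mm.1 were likewise above NIZ in both injured zones. TC0400001697.mm.1 read 9.02, 8.73 and 8.69 in IZ, 8.69, 8.92 and 8.76 in BZ and 8.10, 8.23 and 8.55 in NIZ. Differences were 0.52 log2 in IZ and 0.50 log2 in BZ (limma, unadjusted p = 0.00512 and 0.00634, adjusted p = 0.999 and 0.854), and the profile was like that of Rps29, a protein of the small ribosomal subunit (r = 0.968). TC0200004734.mm.1, between Flrt3 and Kif16b on chromosome 2, differed by 0.36 log2 in IZ and 0.29 log2 in BZ, the last being 0.18 log2 without the NIZ 2 array. Its likeness was highest with Snrpg, a core protein of the spliceosome (r = 0.951). In BZ against NIZ, TC0600001009.mm.1, next to Bmp10 on chromosome 6, was 0.25 log2 higher, with 8.25, 8.22 and 8.42 in BZ and 8.09, 8.05 and 8.00 in NIZ. TC1000000042.mm.1 read 11.26, 11.21 and 11.11 in IZ, 11.26, 11.35 and 11.18 in BZ and 10.94, 11.10 and 11.07 in NIZ, which placed it above NIZ by 0.23 log2 in BZ and by 0.15 log2 in IZ, without overlap in either.

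Among clusters without overlap, the largest negative difference in IZ against NIZ (-0.38 log2) was smaller in size than the largest positive one (1.08 log2). TC0700001265.mm.1 stands directly after Fzd4, a Wnt receptor with a role in vessel growth, and read 8.01, 8.26 and 8.45 in IZ, 8.45, 8.80 and 8.11 in BZ and 8.53, 8.79 and 8.55 in NIZ. The IZ arrays lay below the NIZ arrays by 0.38 log2 on average (limma, unadjusted p = 0.0703, adjusted p = 0.999), and BZ overlapped both. Of the bright clusters with 1 symbol, Fzd4 had the most similar profile (r = 0.948). TC0400002651.mm.1 stands directly after Amd-ps4, a pseudogene of the polyamine enzyme adenosylmethionine decarboxylase. It read 8.21, 8.42 and 8.52 in IZ, 8.49, 8.50 and 8.07 in BZ and 8.69, 8.85 and 8.58 in NIZ, which placed both injured zones below NIZ, by 0.33 log2 in IZ and 0.35 log2 in BZ. Its profile was like those of Amd-ps3 (r = 0.984) and Amd-ps4 (0.975).

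A cluster of another chromosome, TC1000002043.mm.1, had nearly the same likeness, with r = 0.983 to Amd-ps4 and 0.981 to Amd-ps3. It was at 9.59, 9.65 and 9.92 in IZ, 9.75, 9.84 and 9.38 in BZ and 10.08, 10.28 and 9.96 in NIZ. The differences were -0.38 log2 in IZ and -0.45 log2 in BZ, without overlap in either. TC1600000098.mm.1, between 2 clusters of 1810013L24Rik on chromosome 16, was lower by 0.35 log2 in IZ (-0.20 without the NIZ 2 array) and by 0.46 log2 in BZ, and TC0600002491.mm.1 on chromosome 6 was lower by 0.38 log2 in IZ and by 0.27 log2 in BZ. None of these had an adjusted p below 0.854.

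The largest difference between IZ and BZ was that of TC0400000800.mm.1, between Gm11260 and Gm11263 on chromosome 4. It read 9.66, 9.96 and 9.67 in IZ, 8.24, 8.48 and 8.43 in BZ and 8.68, 8.63 and 9.82 in NIZ. The NIZ 3 array lay with the IZ arrays and the other two NIZ arrays lay just above BZ. IZ and BZ averaged 9.76 ± 0.17 and 8.38 ± 0.13 (SD, n = 3 each), a 2.6-fold difference of 1.38 log2 (limma, unadjusted p = 0.00184, adjusted p = 0.943), and in BZ against NIZ the difference was -0.66 log2, or -0.27 log2 without the NIZ 3 array. In IZ against NIZ it was 0.72 log2 on all arrays (limma, adjusted p = 0.999) and 1.11 log2 without the NIZ 3 array (adjusted p = 0.0157).

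A high NIZ 3 array was also seen in TC1000000532.mm.1, between P4ha1 and Timm23 on chromosome 10, with 9.67, 9.93 and 9.69 in IZ, 8.89, 9.12 and 8.57 in BZ and 8.75, 8.83 and 10.05 in NIZ. Likewise it was seen in TC0200000068.mm.1 on chromosome 2, with 10.38, 10.58 and 10.35 in IZ, 9.48, 9.97 and 9.39 in BZ and 9.52, 9.61 and 10.89 in NIZ. IZ exceeded BZ by 0.90 and 0.82 log2 in these clusters. The NIZ 3 array was the highest of the 9 in both, and NIZ 1 and NIZ 2 lay within the range of the BZ arrays. All 3 profiles were like that of Plxdc2, a membrane protein gene of chromosome 2 (r = 0.865, 0.912 and 0.935 in the order given). The NIZ 3 array also had the lowest mean of the neutrophil markers, and the part of that array in these differences is given with the results of the other settings.

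The mean was lower in IZ than in BZ for 336 members (28.6%), and 13 of these were lower without overlap. TC0300001996.mm.1, between Ccna1 and Nbea on chromosome 3, read 9.76, 9.83 and 9.83 in IZ, 10.18, 10.37 and 10.81 in BZ and 10.26, 9.75 and 9.88 in NIZ. The IZ arrays were close together and below every BZ array, with a difference of -0.64 log2 (limma, unadjusted p = 0.00712, adjusted p = 0.943). Among the 13, the next 4 differences were between -0.28 and -0.20 log2. For TC1000000984.mm.1, TC0300002112.mm.1 and TC0500003042.mm.1 the BZ 3 array was the highest of the 9. TC1000000984.mm.1 read 9.77, 9.79 and 9.74 in IZ, 9.87, 9.88 and 10.40 in BZ and 9.91, 9.87 and 9.87 in NIZ, and leaving out the arrays in turn moved its difference of -0.28 log2 between -0.38 and -0.09. For TC0300002112.mm.1 (-0.24 log2) the corresponding range reached -0.02, and for TC0500003042.mm.1 (-0.22 log2) -0.04. TC0700002322.mm.1 differed by -0.20 log2, with a range of -0.27 to -0.08, the smallest being without the IZ 2 array.

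Spread within a zone is described here without a test. The median within-zone SD was 0.109 log2, against 0.150 for bright named clusters, and the median range over the 9 arrays was 0.348 against 0.472. A range above 1 log2 was found in 131 (11.1%, against 11.2%), and one above 2 log2 in 7 unnamed and 82 named bright clusters.

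The widest range, 4.03 log2, belonged to TC0500003431.mm.1 on chromosome 5. It read 9.52, 8.78 and 8.33 in IZ, 10.66, 9.30 and 7.79 in BZ and 11.82, 10.10 and 7.87 in NIZ. In each zone the array numbered 1 was the highest and the array numbered 3 the lowest, and the 3 zones overlapped (limma, adjusted p = 0.999 in IZ against NIZ). The most similar clusters were those of the splicing factor gene U2af1 (r = 0.993) and of Lox, the gene of the collagen cross-linking enzyme lysyl oxidase (0.987). TC0500001025.mm.1, also on chromosome 5, had a range of 2.88 log2, with 9.22, 8.81 and 8.08 in IZ, 10.43, 7.82 and 8.33 in BZ and 9.83, 8.41 and 7.55 in NIZ. Here, too, the array numbered 1 was the highest of its zone, and the most similar clusters were those of Ppp4c, a phosphatase subunit, and of Arg1, the arginase of alternatively activated macrophages (r = 0.962 for both).

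Of the next clusters by range, TC0200003789.mm.1, TC1300000598.mm.1 and TC1700000690.mm.1 were alike. TC1300000598.mm.1, between S1pr3 and Cks2 on chromosome 13, read 8.74, 8.62 and 8.91 in IZ, 9.71, 9.07 and 8.01 in BZ and 10.11, 9.35 and 8.22 in NIZ. Its IZ arrays were close together, while BZ and NIZ spread from high on the arrays numbered 1 to low on those numbered 3. The 3 profiles correlated at 0.977, 0.98 and 0.976 with Nfkbia, the inhibitor of NF-kB that is itself induced by it. The mean of the 12 neutrophil markers, of which 4 had a mean of 8 or more, deviated from its own average by -0.25, -0.22 and 0.46 log2 in IZ, 1.51, 0.27 and -1.49 in BZ and 1.38, 0.21 and -1.87 in NIZ. It correlated with the 3 clusters at 0.924, 0.932 and 0.941 over the arrays, and its part in their range was not tested.

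TC0X00002375.mm.1 on the X chromosome read 9.08, 8.80 and 8.41 in IZ, 9.57, 8.36 and 7.91 in BZ and 9.02, 8.12 and 7.57 in NIZ, a range of 2.00 log2. It followed Itgb2, the beta chain of the leukocyte integrins (r = 0.996), and Fcer1g and Tyrobp, signalling adaptors of myeloid receptors (0.989 and 0.984). The Itgb2 cluster read 8.93, 8.60 and 8.21 in IZ, 9.46, 8.26 and 7.74 in BZ and 8.76, 8.02 and 7.30 in NIZ. Both clusters were highest on the array numbered 1 and lowest on the array numbered 3 of each zone, and the zones overlapped. TC0100001342.mm.1 on chromosome 1, with a range of 2.24 log2, was most like Prg4, the gene of the lubricating proteoglycan lubricin (r = 0.989).

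**Figure D5:**
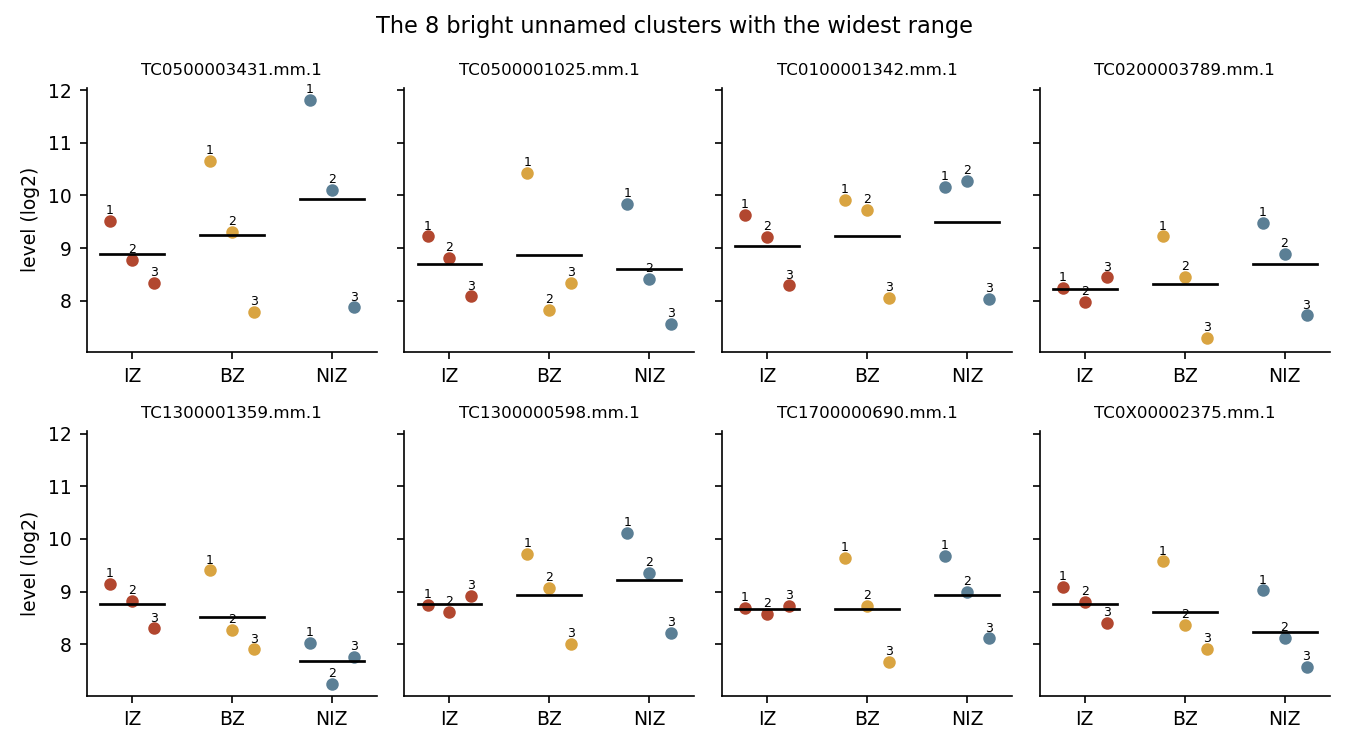
Log2 level (y axis) of the 8 bright unnamed clusters with the widest range, by zone (x axis). Points are arrays with their replicate number and lines are zone means. TC0500003431.mm.1 runs from 11.82 on the NIZ array numbered 1 to 7.79 on the BZ array numbered 3.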

How the data were processed

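RNA of 9 left ventricular samples, 3 each of IZ, BZ and NIZ, was measured on single-colour arrays. The deposited values are log2 levels per transcript cluster that the authors made with RMA. Their processing notes list Transcriptome Analysis Console 3.0 besides Affymetrix Expression Console 1.0, and the genome build and annotation version are not given in the sources used here. RMA summarises a cluster's probes after quantile normalization, so levels of different clusters are not comparable, and a global change of RNA amount would not be visible. The table was used as it stands, with 0 columns left out. The number of arrays limits the precision.

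In the platform's probe-to-gene table, 30414 clusters carry 1 symbol and 2146 carry several. Linear models with 1 mean per zone and moderated variances were fitted in R 4.3.3 by limma 3.58.1 to all 65534 clusters, without a filter, and p-values were adjusted by Benjamini-Hochberg at a threshold of 0.05. The script was tested on simulated data. Other counts were made in Python 3.11.15 with pandas 2.3.3 and scipy 1.17.1, and the exact permutation tests were two-sided. RefSeq (GRCm38.p6) served only for names, gene types and gene order. The 1175 members, the marker lists and the rules were chosen with earlier results of these data known.

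Clusters named in the text are the 12 brightest profiles, the 5 largest differences in each direction among clusters without overlap in each comparison, the 8 with the widest range, the 3 largest sets of identical profiles and the 3 clusters on each side of the limit. Other clusters named were chosen after their values were seen. Likeness is Pearson's r with clusters of 1 symbol and a mean of 8 or more. Same-numbered BZ and NIZ samples had correlated deviations from their zone means over clusters (r = 0.618, 0.204 and 0.516). For IZ with NIZ (0.36, 0.0785 and 0.25) and IZ with BZ (0.358, 0.0632 and 0.197), the number 2 samples fell below 0.1. The main fit did not take the numbers as pairs in any comparison. They entered only as the replicate block among the alternatives. Alternatives were quantile normalization, the replicate block, a filter on dim clusters, median centring, 1 cluster per identical profile, unnamed clusters alone, limma with trend and robust settings, only the zones compared, the methods' one-way comparison, other brightness limits and each array left out in turn. Alternatives for the counts without overlap were added after seeing the data.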

Additional observations from a re-analysis of the deposited data

How the results depend on the processing

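Quantile normalization moved the median difference of the bright unnamed clusters to -0.0178 log2 in BZ against NIZ and to 0.012 log2 in IZ against BZ (-0.0645 and 0.0583 in the deposited table), and lowered the count below NIZ without overlap in BZ to 123. It gave 41 clusters higher and 78 lower in BZ at an unadjusted p under 0.05. The cause was not tested. Leaving out arrays in turn, the medians ranged from -0.0353 to 0.0185 in IZ against NIZ, from -0.078 to -0.0449 in BZ against NIZ and from 0.0173 to 0.086 in IZ against BZ. The lowest of the last range, 0.0173, was without replicate 3 of every zone. Leaving out an array of the zones compared, the count lower in BZ than in NIZ without overlap ranged from 282 (24.0%, against 6.46% of all clusters) to 362 (30.8%, against 6.99% without BZ 2 and 9.36% without BZ 3), and that higher in IZ than in BZ from 142 (12.1%, against 4.26%) to 294 (against 5.92%), with 218 without IZ 2 (4.48% of all), 243 without BZ 1 (6.13%) and 275 without BZ 2 (5.35%). Fewer arrays overlap less often.

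The count of clusters called in IZ against NIZ ranged from 0 to 5, and was 5 without NIZ replicate 3. These were TC0400000800.mm.1 (1.11 log2, limma adjusted p = 0.0157), TC0500002055.mm.1 (0.80, 0.0171), TC0500002844.mm.1 (0.64, 0.00757), TC1400002304.mm.1 (0.60, 0.0313) and TC1600000431.mm.1 (0.87, 0.0188), all highest on NIZ 3 among the NIZ arrays, with adjusted p = 0.999 on all arrays. No bright unnamed cluster was called in the other 2 comparisons under any setting. Calls among all clusters were not counted in these settings, so the 5 cannot be set against a background. The same holds for the counts at an unadjusted p under these settings.

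With the replicate number as a block, 0 clusters were called in all 3 comparisons. At an unadjusted p under 0.05, leaving out arrays gave 41 to 146 lower in BZ against NIZ, 29 to 131 higher in IZ against BZ and 2 to 123 lower in IZ against NIZ (123 without replicate 3 of every zone). The methods' test gave 26 lower in BZ against NIZ, and quantile normalization 49 higher in IZ against BZ. The replicate block gave 40 higher and 123 lower in BZ against NIZ (16 and 120 without it), 49 and 25 in IZ against NIZ (29 and 15) and 114 and 15 in IZ against BZ (105 and 6). In BZ against NIZ and in IZ against BZ the direction of the mitochondrial members held in every setting, with medians from -0.50 to -0.32 log2 in BZ against NIZ and from 0.16 to 0.54 log2 in IZ against BZ (0.16 without replicate 3).

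A limit of 7, 9 or 10 gave 2017, 754 or 512 clusters, and 169, 71 or 48 on chromosome 2. The 30 single differences that were recomputed kept their direction in all 660 alternatives, and 0 of these were called in the comparison they were named for. The 30 were picked because their zones did not overlap, so leaving out arrays could not reverse them. Settings that changed only the test left the differences as they were. The count of 660 therefore says little about how stable the directions are.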

Other observations

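The 2 unnamed mitochondrial clusters with a mean below 8 had the direction of the brighter ones. TC0M00000017.mm.1 had a mean of 5.29 and read 5.26, 5.15 and 5.77 in IZ, 4.95, 4.89 and 4.35 in BZ and 5.92, 6.04 and 5.25 in NIZ, a difference of -1.01 log2 in BZ against NIZ. TC0M00000029.mm.1 had a mean of 7.86 and read 7.71, 7.88 and 7.87 in IZ, 7.70, 7.76 and 7.65 in BZ and 8.25, 7.99 and 7.94 in NIZ, a difference of -0.36 log2. In both, every BZ array lay below every NIZ array, as in 3.72% of all clusters (limma, unadjusted p = 0.00573 and 0.00376).

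Few bright unnamed clusters followed the mean of a cell type's markers over the arrays. A correlation above 0.9 was found with the neutrophil list for 13 of the 1175 (1.11%, against 1.67% of the bright named clusters). It was found with the monocyte and macrophage list for 5 (0.426%, against 1.29%) and with the cardiomyocyte list for 4 (0.34%, against 0.657%). With the erythrocyte and the neural list it was found for 1 each (0.0851%, against 0.0424% for each list). Only 2 of the 6 erythrocyte markers were measured, and the neural markers had a low mean level of 4.58. It was found for 0 with the lymphocyte, endothelial, fibroblast, mural, atrial and adipocyte lists. These are correlations over the same 9 arrays, given as a description.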
